A study of Mus musculus with 75 samples.

Results

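The TNF superfamily ligands and receptors were followed in the lungs of bleomycin-treated mice by RNA sequencing. The members were the protein-coding genes whose symbol starts with Tnfsf or Tnfrsf, together with Tnf, Lta, Ltb, Fasl, Fas, Cd40, Cd40lg, Cd27, Cd70, Ltbr, Eda, Edar and Eda2r, and without Ngfr. They numbered 45 of the 55536 genes of the count table, of which 22028 were protein-coding, and comprised 19 ligands and 26 receptors. The tissue was the inferior lobe of the lung of 75 male C57BL/6JRj mice, 1 library per mouse, taken after the lung had been lavaged. The BLEO-IPF mice had been given bleomycin sulphate once into the trachea, an antineoplastic drug that injures the alveolar epithelium, at an age of 12 to 14 weeks, and were terminated on day 7 (n = 10), 14, 21, 28, 35 (n = 12 each) or 42 (n = 7). Control mice (CTRL, n = 10) were named Saline in the sample labels, while the treatment protocol called them untreated. Only BLEO-IPF mice with a body weight loss of 5 to 17% on day 6 had been randomized, so that the model held neither unaffected nor severely ill mice at that time. Each day held different mice, and no genetic modification was part of any group.

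Ligands of the TNF superfamily are mostly membrane-bound trimers, some of which are shed, and their receptors carry cysteine-rich domains outside the cell. Receptors with a death domain, such as the TNF receptor encoded by Tnfrsf1a and the death receptors Fas and Tnfrsf10b, can start cell death or inflammatory signalling, while others bind TRAF adaptors and activate NF-kB. In the lung the family is known for inflammation after injury (TNF), for the survival and costimulation of lymphocytes (4-1BB, GITR, OX40, BAFF) and for epithelial and fibroblast responses (Fn14).

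Total counts ranged from 9240291 to 14665247 per library, and the members together took 0.0836 to 0.126% of them. This share had a median of 0.0896% in CTRL mice, 0.116% on day 14 and 0.102% on day 42. Levels are in CPM, the reads of a gene per 1000000 reads of its library after TMM scaling (scaling factors 0.918 to 1.04). Genes of alveolar type 2 cells, among them the surfactant genes, summed to 22237 to 27122 CPM in CTRL mice. In all, 4 libraries stood apart: in CTRL replicates 5 and 9 and day 28 replicate 7 the thymocyte genes Dntt and Rag1 summed to 12.7, 25.3 and 17.998 CPM against at most 8.02 CPM in the other 71 libraries. In day 28 replicate 10 the skeletal muscle genes summed to 1521 CPM against at most 15.2 CPM in the others. The quasi-likelihood F test of edgeR set every day against CTRL in 1 fit over all 75 mice, and p-values were adjusted after Benjamini and Hochberg across the 16221 genes tested. A gene is called higher or lower where the adjusted p was under 0.05, log2FC is the fitted log2 fold change against CTRL, and all days share the same CTRL mice. The standard error (SE) given with a log2FC was calculated back from the log2FC and its F statistic. In whole tissue, more or fewer cells of a type and more or less RNA per cell cannot be told apart.

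Of the 45 members, 42 had enough counts for the test, 17 ligands and 25 receptors. More members were raised than lowered on every day, and the raised ones were mainly receptors. On day 7, 19 members were higher and 6 lower, where 24.8% of all genes tested were higher and 21.0% lower. On day 14, 23 members were higher and 7 lower, against 32.4% and 29.9% of all genes. The counts were 20 higher and 4 lower on day 21 (28.3% and 25.8% of all genes), and 21 higher and 3 lower on day 28 (24.1% and 19.2%). On day 35, 19 members were higher and 3 lower (16.9% and 13.1% of all genes), and on day 42, 10 were higher and 2 lower (13.7% and 11.0%). The median log2FC over the members was 0.29 on day 7, 0.34 on day 14 and 0.29 on day 42, while the median over all genes lay between -0.0024 and 0.018 on the 6 days. Receptors alone had a median log2FC of 0.65 on day 14, with 17 of 25 higher and 2 lower. Ligands had a median of -0.091, with 6 of 17 higher and 5 lower.

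In all, 9 members were higher than CTRL on all 6 days, against 8.33% of all genes: the ligands Tnfsf18 and Tnfsf9 and the receptors Tnfrsf9, Tnfrsf1b, Tnfrsf12a, Tnfrsf23, Tnfrsf10b, Tnfrsf11a and Eda2r. With no filter on low counts, the calls of Tnfsf9 on day 35 (adjusted p = 0.0745) and of Tnfsf18 on day 42 (0.0834) were lost. A further 6 members were called on no day (Ltb, Lta, Cd40lg, Fasl, Tnfsf15 and Tnfrsf13b), against 24.4%. In all, 25 members were higher on at least 1 day, 18 receptors and 7 ligands, and 12 were lower on at least 1 day, against 39.6% and 36.6% of all genes. Only Tnfsf13b appeared in both directions. Of the 25 raised members, 21 had their highest log2FC on day 14, as did 51.4% of all genes raised on at least 1 day. In 13 of the 42 members every day 14 mouse lay above every CTRL mouse, which held for 9.46% of all genes, and no member had every day 14 mouse below CTRL (6.15% of all genes). The same complete separation upwards held for 10 members on day 7 (7.39% of all genes), and 7 on day 21 (6.84%). Later it held for 1 member on day 28 (2.10%), and for 3 each on days 35 and 42 (2.43% and 4.22%).

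**Figure D1:**
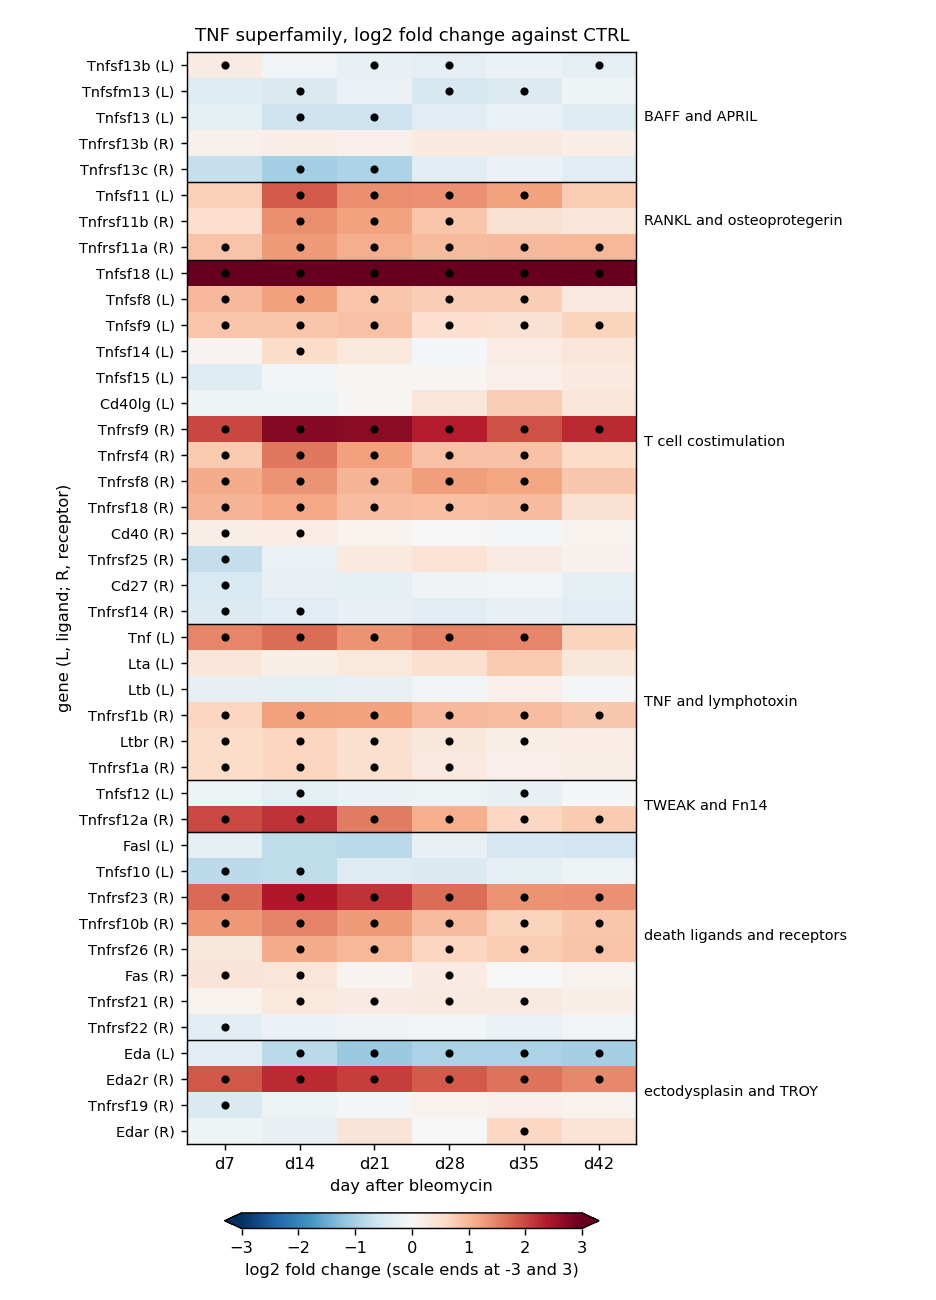
Log2 fold change against CTRL of the 42 members tested (rows, by family group; L, ligand; R, receptor) on the 6 days after bleomycin (columns), with a black point where the adjusted p was under 0.05. Tnfsf18, Tnfrsf9, Tnfrsf23, Eda2r and Tnfrsf12a form the darkest red rows, and Eda and Tnfrsf13c are the bluest.

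Genes of the family lie in clusters in the mouse genome, and the members occupied 15 chromosomes. Chromosome 4 carried 9 of them, all tested. Day 14 saw 6 of these higher and 1 lower, where 32.4% and 29.9% of all genes were. Among the higher ones were the neighbouring pairs Tnfrsf1b and Tnfrsf8 and Tnfrsf4 and Tnfrsf18. Chromosome 17 carried 8, of which 7 were tested and 5 were higher on day 14. The windows directly upstream of 4 strongly raised members are shown, which differ in their start site motifs. They had the largest log2FC of day 14 among the members higher on every day whose RefSeq start lay close to the annotated start. Tnfrsf9 had no such window. Each window shown is the 250 bases before the transcription start of RefSeq on GRCm38.p6, 5′ to 3′ on the strand of the gene, with capitals marking a TATA box (TATAAA, on the gene strand) or a GC box (GGGCGG, on either strand). Tnfsf18 lies at chr1:161494407-161494656 (plus strand), Tnfrsf23 at chr7:143685876-143686125 (minus), Eda2r at chrX:97377210-97377459 (minus) and Tnfrsf12a at chr17:23677450-23677699 (minus).
Tnfsf18: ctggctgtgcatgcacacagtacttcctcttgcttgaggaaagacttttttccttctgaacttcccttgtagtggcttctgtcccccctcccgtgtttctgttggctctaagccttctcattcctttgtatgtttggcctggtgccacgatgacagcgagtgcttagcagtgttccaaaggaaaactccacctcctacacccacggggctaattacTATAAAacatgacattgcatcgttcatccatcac
Tnfrsf23: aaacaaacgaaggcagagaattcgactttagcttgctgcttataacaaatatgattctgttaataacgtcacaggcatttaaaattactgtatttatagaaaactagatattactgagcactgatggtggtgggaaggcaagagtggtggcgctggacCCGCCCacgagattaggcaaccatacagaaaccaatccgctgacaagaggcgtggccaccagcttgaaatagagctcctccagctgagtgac
Eda2r: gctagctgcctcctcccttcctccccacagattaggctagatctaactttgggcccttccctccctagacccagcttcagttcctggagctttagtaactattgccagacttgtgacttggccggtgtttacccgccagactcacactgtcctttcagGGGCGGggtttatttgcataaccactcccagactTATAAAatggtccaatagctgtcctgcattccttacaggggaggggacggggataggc
Tnfrsf12a: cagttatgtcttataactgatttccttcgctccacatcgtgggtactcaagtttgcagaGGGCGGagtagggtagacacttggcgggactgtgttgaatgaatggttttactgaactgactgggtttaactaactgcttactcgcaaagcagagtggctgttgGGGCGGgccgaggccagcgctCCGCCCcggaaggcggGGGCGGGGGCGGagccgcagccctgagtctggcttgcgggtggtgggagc

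The window of Tnfsf18 held a TATA box at positions -34 to -29 from the start and no GC box, and that of Tnfrsf12a held 5 GC boxes, between positions -191 and -39, and no TATA box. Eda2r held a TATA box at -58 to -53 and a GC box at -92 to -87, and Tnfrsf23 held a GC box at -92 to -87. A window was found for 35 of the 45 members (39 windows, as some genes have several starts). Of these, 12.8% held TATAAA and 46.2% a GC box, against 7.59% and 32.7% of all 32851 windows of that length. The AP-1 motif TGANTCA, searched on both strands, was found in 15.4% of the member windows and 6.75% of all windows, and the NF-kB motif in 10.3% and 7.25%. The windows with an AP-1 motif belonged to Fas, Tnfrsf8, Tnfrsf9, Tnfsf13, Tnfsf13b and Tnfsf14, and those with an NF-kB motif to Ltb, Tnfrsf25, Tnfrsf8 and Tnfrsf9. These matches are descriptions of letters and were not tested as binding sites.

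The ligands and receptors of T cell costimulation formed the largest group, with 14 of 16 members tested. On day 14, 9 were higher and 1 lower (32.4% and 29.9% of all genes), with a median log2FC of 0.70, and on day 42, 3 were higher (13.7%). Tnfsf18 encodes the ligand of GITR, a costimulatory receptor that is abundant on regulatory T cells, and lies at chr1:161494655-161505290 (GRCm38, plus strand). It had the largest log2FC of the family on each day. CTRL mice had 0 to 4 reads of this gene, with 3 of 10 libraries at 0, and a median of 0.091 CPM (highest 0.41). On day 7 it lay between 0.96 and 5.28 CPM (median 2.27), on day 14 between 0.99 and 31.9 CPM (median 7.32) and on day 21 between 0.65 and 32.99 CPM (median 2.54). All mice of these 3 days lay above all CTRL mice. Later medians were lower: day 28 ranged from 0.071 to 26.6 CPM with a median of 0.95, day 35 from 0 to 8.01 CPM (median 0.61) and day 42 from 0.17 to 2.81 CPM (median 0.69). The log2FC was 4.38 (SE 1.07) on day 7, 6.18 (SE 0.99) on day 14 and then 5.80, 5.17, 3.82 and 3.25 (SE 1.23) on days 21, 28, 35 and 42. The adjusted p over the 6 days was 5.45e-04, 1.91e-07, 1.42e-06, 3.18e-05, 4.52e-03 and 0.0430. These values rest on very few reads in CTRL mice, and the call on day 42 was lost without the 4 libraries that stood apart (adjusted p = 0.0698) and without a filter on low counts (0.0834).

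GITR itself, encoded by Tnfrsf18, had a smaller log2FC than its ligand, a difference that was not tested. It had 1.38 to 2.61 CPM (median 2.20) in CTRL mice, 3.16 to 5.66 CPM (median 3.96) on day 7, 1.01 to 10.8 CPM (median 3.77) on day 14 and 2.07 to 4.07 CPM (median 2.37) on day 42. Every day 7 mouse lay above CTRL, while from day 14 on the groups overlapped, and 1 day 14 mouse lay below all CTRL mice. The log2FC was 1.02 (SE 0.26, adjusted p = 8.10e-04) on day 7, 1.17 (SE 0.25, adjusted p = 3.85e-05) on day 14 and between 0.91 and 0.95 on days 21 to 35. On day 42 it was 0.46 with an adjusted p of 0.2402, and it was called with only the groups compared (log2FC 0.47, adjusted p = 0.0400). Gm16008, annotated on the opposite strand, took 59.7% as many counts as Tnfrsf18 over all libraries, and the strand setting of the counting is not stated in the sources used here.

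Tnfrsf9 (4-1BB), a receptor that appears on T cells and other leukocytes upon activation, had the second largest log2FC on each day. It had 0.475 to 2.15 CPM (median 1.07) in CTRL mice, 2.30 to 6.34 (median 4.66) on day 7, 3.69 to 13.7 (median 6.81) on day 14, 4.05 to 14.4 (median 6.09) on day 21 and 1.37 to 11.7 (median 4.74) on day 42. The mice of days 7, 14 and 21 all lay above CTRL, and 6 of the 7 mice of day 42 did. The log2FC was 2.01 (SE 0.37, adjusted p = 7.21e-06) on day 7, 2.74 (SE 0.36, adjusted p = 8.38e-10) on day 14 and 2.25 (SE 0.39, adjusted p = 1.18e-05) on day 42. Between day 14 and day 42 the log2FC of Tnfrsf9 was -0.49 (adjusted p = 0.267), so that a decline was not detected. Its ligand Tnfsf9 (4-1BBL) rose from 1.74 to 4.21 CPM (median 3.201) in CTRL mice to 3.28 to 7.39 CPM (median 5.58) on day 14 and 3.77 to 5.31 CPM (median 4.84) on day 42, and the ranges overlapped. Its log2FC was 0.84 (adjusted p = 1.47e-05) on day 14, 0.87 (adjusted p = 1.17e-05) on day 21 and 0.68 (adjusted p = 6.45e-03) on day 42. Reads of Gm11110, on the opposite strand, came to 25.7% of those of Tnfsf9.

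Tnfrsf4 (OX40) and Tnfrsf8 (CD30), further receptors of activated T cells, and Tnfsf8, the ligand of CD30, were raised on days 7 to 35 and were not called on day 42. Tnfrsf4 had 0.95 to 2.37 CPM (median 1.47) in CTRL mice and 2.06 to 8.92 CPM (median 4.25) on day 14, and 11 of 12 mice of that day lay above CTRL. Its log2FC was 0.79 (adjusted p = 0.0117) on day 7, 1.58 (SE 0.26, adjusted p = 2.45e-07) on day 14 and 0.56 (adjusted p = 0.161) on day 42. Tnfrsf8 had at most 1.02 CPM (median 0.57) in CTRL mice, with 1 library at 0, and 0.615 to 2.63 CPM (median 1.36) on day 14. Its log2FC was 1.35 (SE 0.27, adjusted p = 2.03e-05) on day 14, and 8 of 12 mice lay above CTRL. On day 42 its log2FC was 0.80 (adjusted p = 0.0541), which passed the threshold without the 4 libraries that stood apart (log2FC 1.00, adjusted p = 0.0267). Tnfsf8 rose from 1.11 to 3.26 CPM (median 2.39) in CTRL mice to 2.97 to 8.92 CPM (median 4.62) on day 14, with 11 of 12 mice above CTRL and a log2FC of 1.24 (SE 0.24, adjusted p = 1.23e-05). The ligand of OX40, Tnfsf4, was too low for the test: 9 of 10 CTRL libraries were at 0 and the other had 1 read, while BLEO-IPF libraries held up to 10 reads, and only 1 of the 12 libraries of day 14 was at 0.

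Other members of this group changed little or fell. Cd40, a receptor of B cells and antigen-presenting cells, was higher on days 7 and 14 (log2FC 0.21 and 0.22), the first of which was lost with DESeq2 (adjusted p = 0.0511) and with no filter (0.0841), and its ligand Cd40lg was called on no day. Tnfsf14 (LIGHT), a ligand of Tnfrsf14 and Ltbr, was higher on day 14 only (log2FC 0.55, adjusted p = 8.79e-03). Its receptor Tnfrsf14 (HVEM) was lower on days 7 and 14 (log2FC -0.42 and -0.35), the latter not with no filter (adjusted p = 0.0611). Tnfrsf25 (DR3) fell on day 7 alone, with a log2FC of -0.72 (adjusted p = 2.47e-03), and had positive values, not called, from day 21 on. Cd27, a receptor of resting T and B cells, was lower on day 7 (log2FC -0.45, adjusted p = 0.0400), but not without the 4 libraries that stood apart (log2FC -0.28, adjusted p = 0.2402). Its ligand Cd70 never exceeded 3 reads in a library and was at 0 in all CTRL libraries, so that no fold is given.

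Markers of the cells that carry these genes moved unevenly. Of 10 general T cell markers 3 were lower on day 14, near the share of all genes (29.9%). Their summed level was 62.5 to 122 CPM in CTRL mice and 20.7 to 146 CPM on day 14. Of 5 genes of regulatory T cells (Foxp3, Il2ra, Ctla4, Ikzf2 and Ikzf4), 4 were higher on days 7 to 28 (24.1 to 32.4% of all genes). On day 35, 3 were higher (16.9%), and on day 42, 1 was (13.7%). The summed level of the 5 genes had a median of 15.7 CPM (13.7 to 20.7) in CTRL mice and 23.003 CPM (14.6 to 45.6) on day 14. Of 7 genes of dendritic cells, 4 were higher and 1 lower on day 14 (32.4% and 29.9% of all genes). The part of these cells in the changes of the costimulatory genes was not tested.

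**Figure D2:**
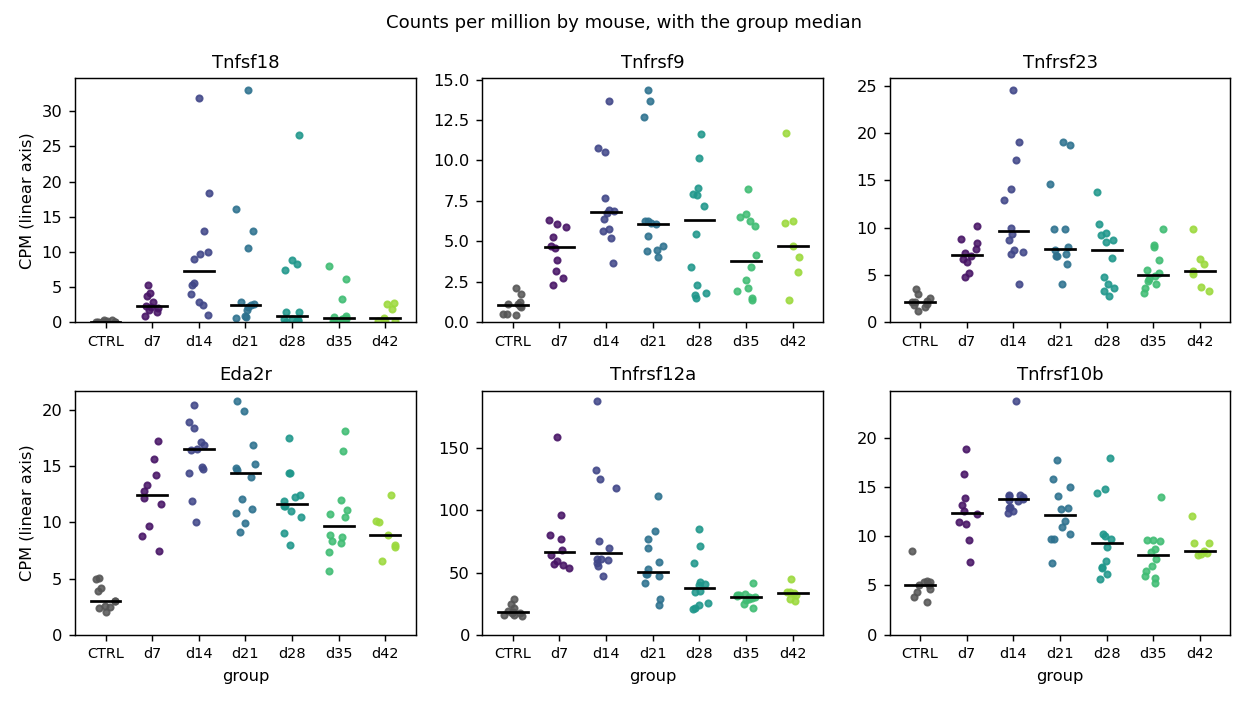
CPM of 6 raised members in every mouse (points) by group, on linear axes that start at 0, with the group median as a black bar. The highest day 14 mouse reached 31.9 CPM of Tnfsf18 and 188 CPM of Tnfrsf12a, and Eda2r lay above CTRL in every mouse of every BLEO-IPF day.

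Among the death ligands and receptors, all 8 members were tested, and 5 were higher and 1 lower on day 14 (32.4% and 29.9% of all genes). Tnfrsf23, a mouse decoy receptor for TRAIL that lacks a death domain, rose from 1.19 to 3.55 CPM (median 2.17) in CTRL mice to 4.80 to 10.2 CPM (median 7.14) on day 7 and 4.02 to 24.6 CPM (median 9.67) on day 14, and stood at 3.35 to 9.84 CPM (median 5.45) on day 42. The groups did not overlap on days 7, 14 and 21. The log2FC was 1.71 (SE 0.28, adjusted p = 8.61e-07) on day 7, 2.41 (SE 0.27, adjusted p = 1.10e-11) on day 14 and 1.37 (SE 0.30, adjusted p = 4.92e-04) on day 42. Tnfrsf26, another receptor of the same cluster on chromosome 7, had 2.56 to 4.04 CPM (median 3.58) in CTRL mice, 3.26 to 5.49 CPM (median 4.41) on day 7, 4.72 to 13.1 CPM (median 6.71) on day 14 and 4.20 to 8.04 CPM (median 5.62) on day 42. On day 7 its log2FC was 0.34 (adjusted p = 0.133), with 7 of 10 mice above CTRL, and it was called with only the groups compared (adjusted p = 0.0179). It was called on day 14 (log2FC 1.11, SE 0.18, adjusted p = 1.97e-07) and day 42 (log2FC 0.84, adjusted p = 1.14e-03), and all mice of days 14, 21 and 42 lay above CTRL. The neighbour Tnfrsf22, also a decoy, moved the other way, with a log2FC of -0.32 on day 7 (adjusted p = 0.0187) and no call afterwards. Of the 75-base words of Tnfrsf23, 13.1% also occur in Tnfrsf22, while 20.8% of those of Tnfrsf22 occur in Tnfrsf23 or in other genes, so that some reads could not be assigned to a single gene.

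Tnfrsf10b, the mouse death receptor for TRAIL, rose from 3.34 to 8.51 CPM (median 5.02) in CTRL mice to 7.39 to 18.8 CPM (median 12.4) on day 7, 12.4 to 23.8 CPM (median 13.8) on day 14 and 8.06 to 12.1 CPM (median 8.45) on day 42. Every day 14 mouse lay above CTRL, whereas the ranges of the other days overlapped with the highest CTRL mouse. Its log2FC was 1.31 on day 7, 1.49 (SE 0.17, adjusted p = 9.87e-12) on day 14, 0.67 on day 35 and 0.83 (SE 0.19, adjusted p = 6.90e-04) on day 42. TRAIL itself, encoded by Tnfsf10, had the second highest level of the family per length of transcript in CTRL mice (median 37.5 CPM per kilobase), overlapping with that of Ltbr (35.9), and fell early. It had 161 to 250 CPM (median 198) in CTRL mice, 71.2 to 161 CPM (median 122) on day 7, 19.98 to 216 CPM (median 137) on day 14 and 138 to 219 CPM (median 180) on day 42. The log2FC was -0.79 (adjusted p = 2.36e-03) on day 7, -0.76 (adjusted p = 1.17e-03) on day 14 and -0.15 (adjusted p = 0.692) on day 42. Fas was higher on days 7, 14 and 28 (log2FC 0.38, 0.36 and 0.25), and the call on day 28 was lost without the 4 libraries that stood apart (adjusted p = 0.177). Its ligand Fasl, a product of cytotoxic lymphocytes, had a log2FC of -0.75 on day 14 (adjusted p = 0.0627) and -0.81 on day 21 (adjusted p = 0.0520). Genes of NK cells were lower on day 14 in 7 of 7 cases (29.9% of all genes), and their sum fell from a median of 46.3 CPM (34.9 to 64.2) to 20.7 CPM (2.52 to 29.5). The part of NK cells in the values of Fasl and Tnfsf10 was not tested. Tnfrsf21 (DR6) was slightly higher on days 14 to 35 (log2FC 0.25 to 0.31).

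TNF, encoded by Tnf at chr17:35199381-35202007 (minus strand), is the founding cytokine of the family and a product mainly of macrophages. Its level was low, with 0.38 to 0.94 CPM (4 to 11 reads, median 0.65 CPM) in CTRL mice, 1.06 to 2.38 CPM (median 1.88) on day 7, 1.18 to 3.99 CPM (median 1.80) on day 14, 0.74 to 2.98 CPM (median 1.76) on day 35 and 0.50 to 1.69 CPM (median 1.03) on day 42. The mice of days 7 and 14 all lay above CTRL. The log2FC stayed between 1.34 and 1.68 from day 7 to day 35, with adjusted p of 1.48e-05 on day 7, 1.59e-07 on day 14 (SE 0.27) and 1.55e-05 on day 35, and was 0.66 (SE 0.31, adjusted p = 0.112) on day 42. Of the TNF receptors, Tnfrsf1b (TNFR2), carried by leukocytes and endothelium, had a larger log2FC than Tnfrsf1a (TNFR1), which most cells express. Tnfrsf1b had 42.4 to 63.03 CPM (median 52.1) in CTRL mice, 65.98 to 112 CPM (median 83.0) on day 7, 98.7 to 146 CPM (median 128) on day 14 and 61.8 to 135 CPM (median 85.5) on day 42. Days 7, 14, 21 and 35 did not overlap with CTRL, and the log2FC was 0.65 (SE 0.14, adjusted p = 1.46e-04) on day 7, 1.24 (SE 0.14, adjusted p = 8.41e-12) on day 14 and 0.81 (SE 0.15, adjusted p = 5.89e-05) on day 42. Tnfrsf1a, which had the highest level of the family per length of transcript in CTRL mice (median 65.6 CPM per kilobase), had 157 to 187 CPM (median 170) in CTRL mice, 219 to 365 CPM (median 249) on day 14 and 179 to 212 CPM (median 188) on day 42. Its log2FC was 0.55 on day 7, 0.64 (adjusted p = 1.15e-11) on day 14 and 0.19 (adjusted p = 0.0711) on day 42. The gene was called on day 42 with library size as the only scaling (adjusted p = 0.0373) and with only the groups compared (0.0020).

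The lymphotoxin receptor Ltbr followed Tnfrsf1a, with a log2FC of 0.55 on day 7, 0.65 (adjusted p = 1.52e-10) on day 14 and 0.20 (adjusted p = 0.0414) on day 35, the last of which was lost without the 4 libraries that stood apart (adjusted p = 0.106). The lymphotoxins themselves, made by lymphocytes, were not called on any day. Lta had 0.40 to 0.81 CPM (median 0.49) in CTRL mice and 0.20 to 1.75 CPM (median 0.44) on day 14, with a highest log2FC of 0.79 on day 35 (adjusted p = 0.0538). Ltb had a log2FC between -0.30 and 0.16 over the 6 days. Tnf, Lta and Ltb are neighbours on chromosome 17, of which Tnf was called and the others were not, and the difference between them was not tested. Genes of monocyte-derived macrophages, among them Spp1, Gpnmb and Trem2, were higher on day 14 in 8 of 9 cases (32.4% of all genes), with a median log2FC of 3.09. Their sum rose from 183 to 277 CPM (median 208) in CTRL mice to 1396 to 8665 CPM (median 3760) on day 14. On day 42, when 13.7% of all genes were higher, 8 of the 9 were (median log2FC 2.33), against 1 of the 6 members of the TNF and lymphotoxin group (median 0.28). The part of these macrophages in the levels of Tnf and its receptors was not tested.

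RANKL (Tnfsf11), RANK (Tnfrsf11a) and the decoy receptor osteoprotegerin (Tnfrsf11b) control osteoclasts in bone and are also expressed in other tissues. All 3 genes were higher on days 14, 21 and 28, and all 3 rose further from day 7 to day 14, a call that for Tnfrsf11a was lost with library size as the only scaling (adjusted p = 0.0504) and with no filter (0.0643). Tnfsf11 was low, with 0.19 to 0.81 CPM (2 to 12 reads, median 0.46 CPM) in CTRL mice, 0.57 to 5.17 CPM (median 1.36) on day 14 and 0.34 to 1.56 CPM (median 0.68) on day 42. Its ranges overlapped with CTRL on all days, and the log2FC was 0.70 (adjusted p = 0.136) on day 7, 1.83 (SE 0.36, adjusted p = 1.13e-05) on day 14, 1.20 (adjusted p = 9.37e-03) on day 35 and 0.76 (adjusted p = 0.192) on day 42. Tnfrsf11a rose early and stayed raised. It had 5.22 to 8.01 CPM (median 6.32) in CTRL mice, 9.01 to 13.8 CPM (median 11.6) on day 7, 9.76 to 23.3 CPM (median 15.4) on day 14 and 8.58 to 19.3 CPM (median 12.5) on day 42, and day 28 alone overlapped with CTRL. The log2FC was 0.85 (SE 0.16, adjusted p = 8.95e-06) on day 7, 1.27 (SE 0.15, adjusted p = 6.20e-11) on day 14 and 0.99 (SE 0.17, adjusted p = 8.85e-06) on day 42. Between day 14 and day 42 its log2FC was -0.28 (adjusted p = 0.179).

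Osteoprotegerin was called on days 14, 21 and 28. Its gene Tnfrsf11b had 4.50 to 6.49 CPM (median 5.42) in CTRL mice, 4.90 to 12.6 CPM (median 6.74) on day 7, 6.81 to 21.7 CPM (median 13.8) on day 14, 5.55 to 29.5 CPM (median 9.23) on day 21, 3.08 to 17.5 CPM (median 9.15) on day 28 and 5.52 to 9.29 CPM (median 6.69) on day 42. All day 14 mice lay above CTRL, while 1 mouse of day 28 and 2 of day 35 lay below all CTRL mice. Its log2FC was 0.50 (adjusted p = 0.110) on day 7, 1.40 (SE 0.25, adjusted p = 1.67e-06) on day 14, 0.84 (adjusted p = 4.65e-03) on day 28 and 0.37 (adjusted p = 0.351) on day 42. With only the groups compared in the fit, Tnfrsf11b was also called higher on days 7, 35 and 42 (adjusted p = 0.0044, 0.0105 and 0.0098). From day 14 to day 42 it fell by 1.02 on the log2 scale (SE 0.27, adjusted p = 2.66e-03). Fibroblasts are among the sources of osteoprotegerin, and their markers summed to 2483 to 3052 CPM (median 2736) in CTRL mice, 4134 to 11160 CPM (median 6347) on day 14 and 2474 to 3228 CPM (median 2742) on day 42. Of the 7 fibroblast markers, 4 were higher and 2 lower on day 14 (32.4% and 29.9% of all genes). The part of fibroblasts in the course of Tnfrsf11b was not tested.

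**Figure D3:**
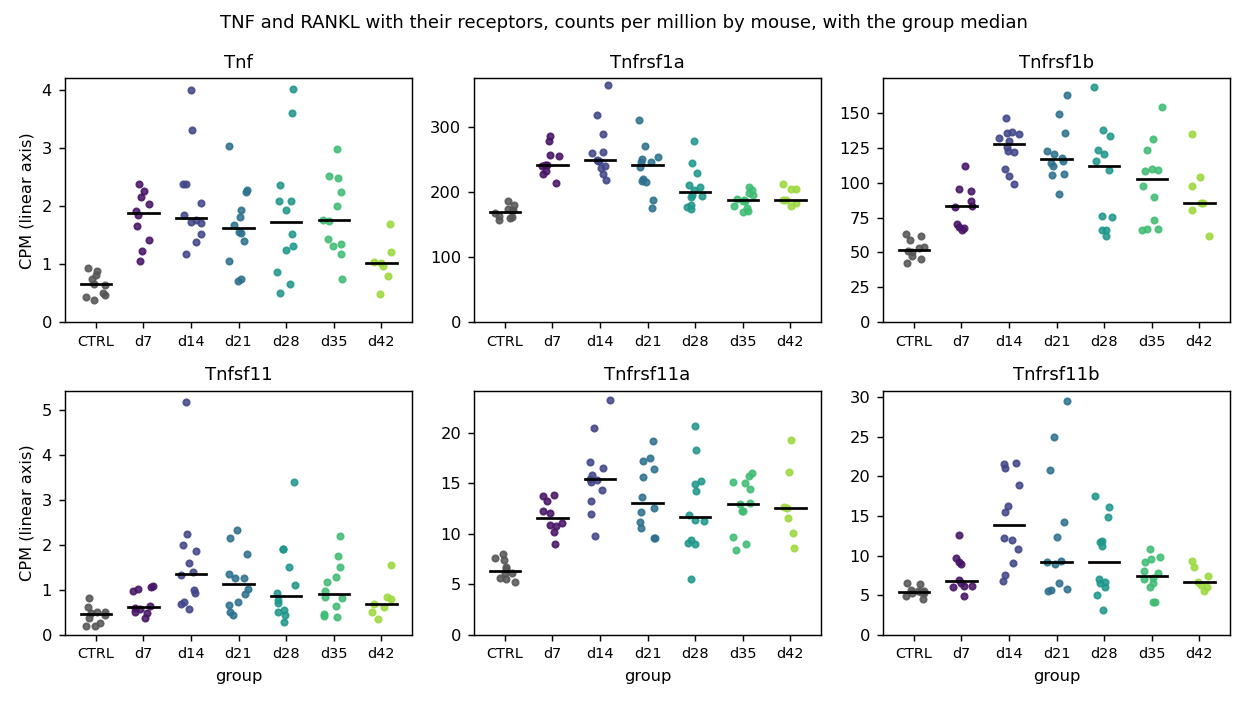
CPM of Tnf, Tnfsf11 and their receptors in every mouse (points) by group, on linear axes that start at 0, with the group median as a black bar. The median of Tnfrsf11a was 12.5 CPM on day 42 against 6.32 CPM in CTRL mice, and that of Tnfrsf11b was 6.69 against 5.42 CPM.

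Fn14, encoded by Tnfrsf12a, is the receptor of TWEAK and is induced by injury and growth factors in epithelial and mesenchymal cells. It rose early. CTRL mice had 14.9 to 28.5 CPM (median 18.1), against 53.9 to 159 CPM (median 66.2) on day 7, 47.2 to 188 CPM (median 65.6) on day 14, 24.3 to 112 CPM (median 50.8) on day 21, 21.9 to 41.4 CPM (median 30.3) on day 35 and 26.998 to 44.4 CPM (median 33.5) on day 42. Days 7 and 14 did not overlap with CTRL. The log2FC was 1.99 (SE 0.23, adjusted p = 2.12e-10) on day 7, 2.17 (SE 0.23, adjusted p = 1.42e-12) on day 14, 0.63 (adjusted p = 0.0264) on day 35 and 0.78 (SE 0.25, adjusted p = 0.0181) on day 42. Between day 14 and day 42 it fell by 1.39 on the log2 scale (SE 0.25, adjusted p = 1.62e-05), and all 7 mice of day 42 lay below all day 14 mice. TWEAK (Tnfsf12), in contrast, had 28.3 to 34.9 CPM (median 30.7) in CTRL mice and 13.9 to 29.9 CPM (median 26.5) on day 14, with a log2FC of -0.28 (SE 0.083, adjusted p = 2.28e-03). On day 35 its log2FC was -0.21 (adjusted p = 0.0418), a call that was lost under 4 of the 7 alternatives, among them the fit without the 4 libraries that stood apart (adjusted p = 0.0568). Tnfsf12 shares exons with the read-through gene Tnfsfm13, and 45.8% of its 75-base words occur there, so that its counts could be split. Genes of transitional alveolar epithelial cells (Krt8, Cldn4, Krt19, Sfn, Krt18, Areg and Lgals3) were higher on day 7 in 7 of 7 cases (24.8% of all genes) and on day 14 in 6 of 7 (32.4%). Their sum rose from 470 to 645 CPM (median 566) in CTRL mice to 881 to 1547 CPM (median 1179) on day 7, and stood at 572 to 913 CPM (median 800) on day 42. Lgals3 is also expressed by macrophages, so that its part in this count and sum need not be epithelial. The part of transitional epithelial cells in the level of Tnfrsf12a was not tested.

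In the ectodysplasin group, with 4 members tested, a ligand fell while a receptor rose. Ectodysplasin (Eda, chrX:99975606-100400762, plus strand) directs the formation of skin appendages and glands. Its splice forms bind either Edar or Eda2r, which gene counts cannot separate. Eda had 5.01 to 8.24 CPM (median 5.99) in CTRL mice, 3.25 to 6.61 CPM (median 4.85) on day 7, 2.13 to 6.13 CPM (median 3.32) on day 14, 1.54 to 4.06 CPM (median 2.80) on day 21 and 1.78 to 4.66 CPM (median 3.06) on day 42. All mice of days 21, 28 and 42 lay below all CTRL mice, which held for 4.85%, 1.34% and 3.37% of all genes, and on each of days 14 and 35, 11 of 12 mice did. The log2FC was -0.34 (adjusted p = 0.0934) on day 7, -0.82 (SE 0.16, adjusted p = 1.43e-05) on day 14, -1.12 (SE 0.16, adjusted p = 3.74e-08) on day 21 and -0.9999 (SE 0.19, adjusted p = 7.35e-05) on day 42. From day 14 to day 42 its log2FC was -0.18 (adjusted p = 0.464), so that no return towards CTRL was detected.

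Eda2r (XEDAR, chrX:97333840-97377216, minus strand) was raised in every BLEO-IPF mouse. CTRL mice had 2.05 to 5.09 CPM (median 2.99), against 7.47 to 17.3 CPM (median 12.5) on day 7, 10.0 to 20.5 CPM (median 16.5) on day 14, 9.16 to 20.8 CPM (median 14.4) on day 21, 7.99 to 17.5 CPM (median 11.7) on day 28, 5.64 to 18.1 CPM (median 9.66) on day 35 and 6.52 to 12.5 CPM (median 8.88) on day 42. It was the only tested member without overlap with CTRL on all 6 days. The log2FC was 1.86 (SE 0.18, adjusted p = 1.18e-13) on day 7, 2.24 (SE 0.17, adjusted p = 1.15e-17) on day 14, 1.64 (SE 0.17, adjusted p = 1.85e-11) on day 35 and 1.43 (SE 0.19, adjusted p = 3.15e-08) on day 42. Edar had 0.80 to 2.77 CPM (median 1.64) in CTRL mice, 0.60 to 1.97 CPM (median 1.34) on day 14 and 0.92 to 3.80 CPM (median 2.59) on day 35, when it was higher (log2FC 0.63, adjusted p = 0.0196). Its adaptor gene Edaradd was lower on days 14 and 21 (log2FC -0.87 and -0.59). Tnfrsf19 (TROY), a related receptor of epithelial and neural cells, was lower on day 7 (log2FC -0.42, adjusted p = 1.56e-03) and was not called later. Epithelial markers fell in part on day 14, when 29.9% of all genes were lower and 32.4% higher. Of the genes of club and ciliated cells 6 of 6 were lower, and of alveolar type 2 cells 6 of 7. Of alveolar type 1 cells, 3 of 6 were lower and 1 higher. The sum of the club and ciliated cell genes had a median of 26534 CPM in CTRL mice, 7259 CPM on day 14 and 16029 CPM on day 42. The part of these cells in the levels of Eda and Tnfrsf19 was not tested.

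Eda2r, Tnfrsf10b and Fas are known direct targets of the transcription factor p53, which responds to DNA damage. Of 20 other known p53 targets, 14 were higher and 3 lower on day 7. Day 14 had 11 higher and 3 lower, and day 42 had 10 and 1, with a median log2FC of 0.52, 0.41 and 0.28 on these 3 days. Of all genes, 24.8%, 32.4% and 13.7% were higher on these days, and 21.0%, 29.9% and 11.0% were lower. Cdkn1a, an inhibitor of the cell cycle, had a log2FC of 3.197 on day 7 and 2.02 on day 42, and the stress cytokine Gdf15 of 3.37 and 2.07. Rrm2b, a ribonucleotide reductase subunit, and Xpc, a DNA repair gene, were lower on day 14 (log2FC -0.80 and -0.54). The part of p53 in the levels of Eda2r, Tnfrsf10b and Fas was not tested.

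BAFF (Tnfsf13b) and APRIL (Tnfsf13) keep B cells and plasma cells alive through the receptors BAFF-R (Tnfrsf13c), TACI (Tnfrsf13b) and BCMA (Tnfrsf17). Of the 5 members tested, 3 were lower on day 14 (29.9% of all genes). Tnfrsf13c had 3.98 to 9.07 CPM (median 5.14) in CTRL mice, 1.496 to 4.33 CPM (median 3.77) on day 7, 0.90 to 6.82 CPM (median 2.17) on day 14, 1.47 to 5.94 CPM (median 2.47) on day 21 and 1.83 to 7.96 CPM (median 4.15) on day 42. The groups overlapped on all days, with 9 of 12 day 14 mice below all CTRL mice. The log2FC was -0.69 (adjusted p = 0.0620) on day 7, -1.01 (SE 0.30, adjusted p = 2.53e-03) on day 14, -0.93 (SE 0.30, adjusted p = 6.64e-03) on day 21 and -0.34 (adjusted p = 0.493) on day 42. On day 28 a single mouse, replicate 10, whose library held skeletal muscle RNA, had 15.7 CPM, against a median of 3.00 CPM. Without the 4 libraries that stood apart, the log2FC of day 28 was -0.77 (adjusted p = 0.0347), and with them it was -0.34 (adjusted p = 0.356). B cell markers were lower on some of the same days. The 7 reported here (Ms4a1, Cd79a, Cd79b, Pax5, Fcer2a, Blk and Cr2) were lower on day 14 (29.9% of all genes), and 6 of them on day 21 (25.8%). On day 7, when Tnfrsf13c was not called, 5 of the 7 were lower (21.0%). Their sum fell from 123 to 252 CPM (median 190.02) in CTRL mice to 23.1 to 135 CPM (median 83.1) on day 14, and stood at 80.1 to 238 CPM (median 133) on day 42. The part of B cells in the level of Tnfrsf13c was not tested.

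Tnfsf13b had 37.8 to 46.4 CPM (median 41.5) in CTRL mice, 37.8 to 56.4 CPM (median 50.3) on day 7, 30.6 to 43.9 CPM (median 40.5) on day 14 and 26.3 to 39.6 CPM (median 34.2) on day 42. It was the only member called in both directions, higher on day 7 (log2FC 0.24, adjusted p = 0.0169) and lower on days 21, 28 and 42 (log2FC -0.21, -0.27 and -0.29), of which days 21 and 42 were lost with no filter (adjusted p = 0.0687 and 0.0597). Tnfsf13 was lower on days 14 and 21 (log2FC -0.62 and -0.63, adjusted p = 1.21e-03 and 1.47e-03), with a median of 3.33 CPM in CTRL mice and 1.99 CPM on day 14. Tnfsfm13, a read-through gene that joins Tnfsf12 and Tnfsf13, was lower on days 14, 28 and 35 (log2FC -0.43, -0.47 and -0.41), and its calls on days 28 and 35 were lost without the 4 libraries that stood apart (adjusted p = 0.0746 and 0.0519). Of its 75-base words 66.1% occur in Tnfsf12 or Tnfsf13, and 55.7% of those of Tnfsf13 occur in Tnfsfm13, so that the counts of these 3 genes are uncertain. Tnfrsf13b was called on no day (log2FC 0.13 to 0.30), but without the 4 libraries that stood apart it was higher on days 14, 28 and 35 (log2FC 0.33, 0.33 and 0.39). Tnfrsf17 was too low for the test and had 0 to 5 reads in CTRL mice and up to 35 reads in 1 mouse of day 35 (3.53 CPM, median of that day 0.53). Of the 7 plasma cell markers tested, 3 were higher and 2 lower on day 14, near the shares of all genes (32.4% and 29.9%).

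**Figure D4:**
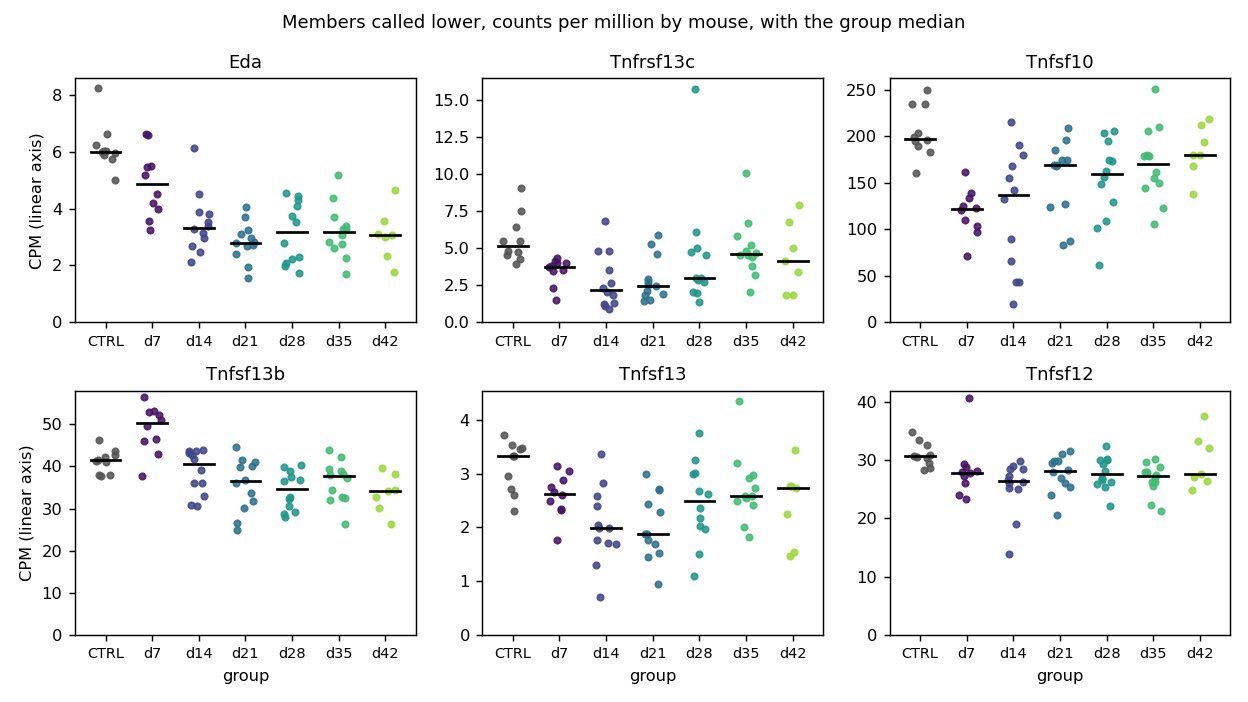
CPM of 6 members called lower on at least 1 day in every mouse (points) by group, on linear axes that start at 0, with the group median as a black bar. Eda falls from a median of 5.99 CPM in CTRL mice to 2.80 CPM on day 21 and has 3.06 CPM on day 42, whereas Tnfsf10 has 198 CPM in CTRL mice, 122 CPM on day 7 and 180 CPM on day 42.

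Ligands and receptors were then set side by side in 22 known pairs with both genes tested. The list did not join Tnfsf10 with its decoy receptors Tnfrsf23 and Tnfrsf22. On day 14 Tnfsf10 was lower, Tnfrsf23 was higher and Tnfrsf22 was not called. Of all single genes, 32.4% were higher and 29.9% lower on that day. On day 14 both genes of a pair were higher in 8 pairs, among them Tnf with Tnfrsf1a and Tnfrsf1b, Tnfsf9 with Tnfrsf9, Tnfsf18 with Tnfrsf18 and Tnfsf11 with Tnfrsf11a and Tnfrsf11b. The receptor alone was higher in 5 pairs, and in 3 the receptor was higher and the ligand lower: Tnfsf10 with Tnfrsf10b, Tnfsf12 with Tnfrsf12a and Eda with Eda2r. In the fit over all mice, neither gene was called in 2 pairs on day 14 and in 11 pairs on day 42. On day 42 Tnfsf9 with Tnfrsf9 was the only pair with both genes higher in that fit. Pairs share genes and are not independent.

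The course was tested directly between days. From day 7 to day 14, 8 members were higher and 2 lower, where 9.48% of all genes were higher and 7.55% lower. The members that rose further were Tnfsf18 (log2FC 1.81), Tnfsf11 (1.13), Tnfrsf11b (0.90), Tnfrsf4 (0.78), Tnfrsf26 (0.77), Tnfrsf23 (0.71), Tnfrsf1b (0.59) and Tnfrsf11a (0.42), and Eda and Tnfsf13b fell. The call of Tnfsf18 was lost with DESeq2 (adjusted p = 0.0553), library size only (0.0507) and no filter (0.0807), that of Tnfrsf11a with the last 2 of these, and those of Tnfrsf23 and Eda with no filter (0.0626 and 0.0715). From day 14 to day 42, 14 members were lower and 3 higher, where 18.8% of all genes were lower and 15.2% higher. The largest decreases on the log2 scale were those of Tnfsf18 (-2.93), Tnfrsf12a (-1.39), Tnfsf11 (-1.07) and Tnfrsf23 (-1.04), and the increases were those of Edar (0.63), Tnfsf10 (0.61) and Tnfsf12 (0.23). The calls of Tnfsf11, Tnfrsf18, Tnfsf10 and Tnfsf12 were lost both with no filter and with only the groups compared, and that of Edar with no filter. In 4 members, all receptors, every day 42 mouse lay below every day 14 mouse, which held for 2.68% of all genes. Of the 9 members raised on all days, Tnfrsf9, Tnfrsf11a and Tnfsf9 were not called lower on day 42 than on day 14.

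Mice of a day differed across many members at once. Over the 16 members that rose by at least 1 on the log2 scale on some day, replicate 6 of day 35 had the highest level of its day in 11, replicate 1 of day 28 in 8 and replicate 10 of day 21 in 7. Replicate 4 of day 42 had the lowest level of its day in 8, and replicate 4 of day 35 and replicate 11 of day 14 in 7 each. Tnfsf18 showed this spread most, with a highest to lowest ratio of 32.1 on day 14, 50.5 on day 21 and 374 on day 28, where the lowest mouse had a single read. Eda2r had ratios of 1.91 to 3.21 over the 6 days.

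The signal of these receptors is carried by adaptors, kinases, caspases and NF-kB proteins. A list of 36 genes, all tested, held such genes and also the receptor gene Relt and the protease gene Adam17. Of the 36, 17 were higher and 6 lower on day 14 (32.4% and 29.9% of all genes), with a median log2FC of 0.14. On day 42, 9 were higher (13.7% of all genes). Nfkbie, an inhibitor of NF-kB that NF-kB itself induces, and Relt, a TNF receptor family gene whose symbol lies outside the rule, had the largest increases on day 14, with a log2FC of 1.20 (SE 0.14, adjusted p = 7.03e-11) and 1.26 (SE 0.15, adjusted p = 1.37e-10). Traf1, an adaptor of TNF receptors that NF-kB also induces, was lower on days 7, 14 and 21 (log2FC -0.71, -0.82 and -0.43) although several of its receptors were higher. On day 42 Nfkbie was still higher (log2FC 0.82, adjusted p = 1.04e-04), and Traf1 had a log2FC of 0.04 (adjusted p = 0.865).

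**Figure D5:**
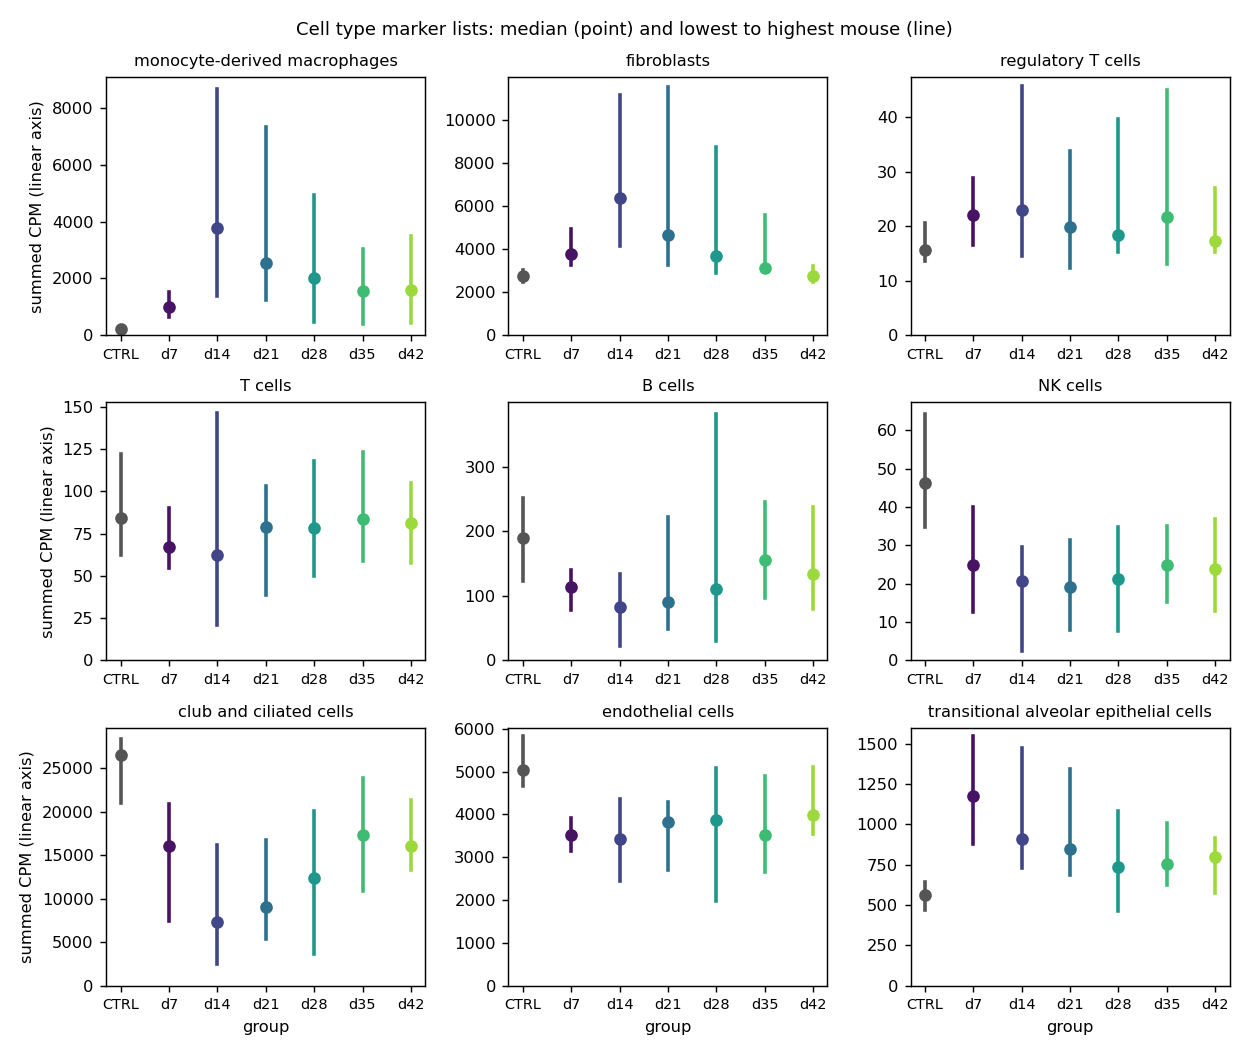
Summed CPM of 9 cell type marker lists by group, with the median mouse as a point and the lowest to highest mouse as a line, on linear axes that start at 0. The median sum of monocyte-derived macrophage genes was 208 CPM in CTRL mice and 3760 CPM on day 14, and that of T cell genes 84.3 and 62.5 CPM.

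Other cells that could carry members moved as follows on day 14. Of the marker genes tested, 2 of 8 of alveolar macrophages were higher and 3 lower, and 3 of 5 of neutrophils were higher. Of endothelial cells 6 of 7 were lower, and of the thymus 4 of 5. Of all genes, 32.4% were higher and 29.9% lower, and the alveolar macrophage counts were near these shares. The thymus list summed to 17.2 to 56.3 CPM (median 21.3) in CTRL mice, among which replicates 5 and 9 stood apart by thymocyte genes. On day 14 it summed to 9.02 to 26.8 CPM (median 16.5). The summed level of the neutrophil list had a median of 52.99 CPM (22.3 to 79.2) in CTRL mice and 43.6 CPM (25.9 to 484) on day 14. The neutrophil calls thus went without a rise of the median sum, while the highest mouse lay far above CTRL. For skeletal muscle, 2 genes were tested, with a median log2FC of 0.0085. No list had a gene at 0 in all libraries of CTRL or of day 14.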

How the data were processed

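RNA was taken from the inferior lung lobe of 75 mice and made into poly(A)-selected, directional libraries (NEBNext Ultra II Directional) that were sequenced as single-end reads. Per the submitters' processing notes, reads were aligned with STAR 2.7.0f to GRCm38 (mm10), and the authors deposited raw counts per Ensembl gene, with no normalization. The counting program, its strand setting and its treatment of reads with several matches are not given in the sources used here, so overlapping and antisense genes are uncertain. Symbols and positions came from GENCODE M21 (Ensembl 96), in which all 55536 identifiers were found. Promoter windows came from RefSeq.

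Depth was 9240291 to 14665247 counts per library. At this depth a member with few reads, such as Tnfsf18 in CTRL mice, has a fold change of low precision, and intervals and SE cover the spread between mice. Samples were grouped by their labels, each library being a different mouse. Genes with too few counts for filterByExpr were left out. The quasi-likelihood F test of edgeR 4.0.16 in R 4.3.3 was fitted over all 7 groups with TMM scaling, and 8 comparisons were made (each of 6 days with CTRL, day 14 with day 7, day 42 with day 14), each adjusted by the Benjamini-Hochberg method over 16221 genes. The code was tested on simulated data. The members and gene lists were chosen with earlier results of these data known, and 1 gene of the B cell list is not reported here. Members with an absolute log2FC of at least 1 and an adjusted p under 0.05 on any day, and their partners, are given with values for the groups, all others by fold change and call, and of the signal proteins and p53 targets the 2 largest increases and decreases on day 14.

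The fits were repeated in 6 ways: with DESeq2 1.42.0, without the filter on low counts, with library size alone or upper quartile factors as the scaling, with only the groups compared, and with the replicate number as a block. Another, chosen after seeing the data, left out the 4 libraries with thymus or skeletal muscle RNA. Of 375 pairs of libraries within groups, the most alike pair had a chi-square of 3.88 per degree of freedom, so that no library was counted as a repeat of another. Figures were drawn with matplotlib 3.10.9.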

Additional observations from a re-analysis of the deposited data

Results flagged for a closer look

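In 10 of 126 groups of 7 or 10 mice tested (7.94%), a single mouse lay far from the others by Dixon's criterion on log2 CPM, where chance flags about 1 in 20 groups. On day 7 the mice were replicate 5 with 1.76 CPM of Tnfsf13 (others 2.33 to 3.14), replicate 9 with 0.459 CPM of Tnfrsf8 (others 0.924 to 1.86), replicate 10 with 1.57 CPM of Lta (others 0.440 to 0.831), replicate 3 with 40.6 CPM of Tnfsf12 (others 23.4 to 29.3) and replicate 1 with 0.0923 CPM of Fasl (others 0.406 to 1.16). Among CTRL mice replicate 1 had 12.7 CPM of Tnfrsf14 (others 7.23 to 9.55), replicate 2 had 8.51 CPM of Tnfrsf10b (others 3.34 to 5.43) and replicate 10 had 0 CPM of Tnfrsf8 (others 0.278 to 1.02). On day 42 replicate 7 had 5.31 CPM of Tnfrsf4 (others 1.31 to 2.28) and replicate 1 had 12.1 CPM of Tnfrsf10b (others 8.06 to 9.28).

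The response to bleomycin differed between days 7 and 14 in 10 members, by the test of the days against each other. The log2FC of day 14 over day 7 was 1.81 for Tnfsf18, 1.13 for Tnfsf11, 0.90 for Tnfrsf11b, 0.78 for Tnfrsf4, 0.77 for Tnfrsf26, 0.71 for Tnfrsf23, 0.59 for Tnfrsf1b, 0.42 for Tnfrsf11a, -0.33 for Tnfsf13b and -0.48 for Eda. Between days 14 and 42 it differed in 17 members. The log2FC of day 42 over day 14 was -2.93 for Tnfsf18, -1.39 for Tnfrsf12a, -1.07 for Tnfsf11, -1.04 for Tnfrsf23, -1.02 for both Tnfrsf11b and Tnfrsf4, -1.01 for Tnf, -0.95 for Tnfsf8, -0.80 for Eda2r, -0.71 for Tnfrsf18, -0.66 for Tnfrsf10b, -0.44 for Tnfrsf1a, -0.43 for Tnfrsf1b, -0.42 for Ltbr, 0.23 for Tnfsf12, 0.61 for Tnfsf10 and 0.63 for Edar.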

How the results depend on the processing

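The counts of members called kept within 1.5 times of those given, except as follows. With no filter on low counts, the members lower on day 35 numbered 1 in place of 3, those lower on day 42 numbered 1 in place of 2, those higher on day 14 than on day 7 numbered 5 in place of 8 and those lower 1 in place of 2. In that edgeR fit the members higher on day 42 than on day 14 numbered 0 in place of 3, with 5 at an unadjusted p under 0.05, while DESeq2 called 3; more genes are tested there. With only the groups compared in the fit, the members lower on day 28 numbered 5 in place of 3 and those higher on day 42 than on day 14 numbered 1. The members lower on day 35 numbered 1 with library size as the only scaling, and 1 without the 4 libraries that stood apart. The replicate block gave 5 members lower on day 28 and lost the call of Tnfsf18 on day 42 (adjusted p = 0.0511). The deviations of same-numbered mice of different groups had a median correlation of 0.0057 over 204 pairs, against 0.0018 over 2196 pairs with different numbers. The correlation exceeded 0.1 in 63 of the former and 556 of the latter. The labels do not state that the numbers pair mice, and these correlations cannot settle it. Every member kept its sign in each call. Of 336 results of single members, 20 lost and 0 gained a call with no filter, 3 lost and 1 gained with DESeq2, 5 and 3 with library size only, 1 and 2 with upper quartile factors, 1 and 7 with the replicate block and 7 and 5 without the 4 libraries. With only the groups compared, 4 of 297 lost and 18 gained a call. Depth limits the tested members with under 30 reads in each CTRL library (Tnfsf18, Lta, Cd40lg, Tnf, Tnfsf11, Tnfrsf8, Fasl, Tnfrsf4, Tnfrsf9, Tnfsfm13 and Edar), and Cd70, Tnfsf4 and Tnfrsf17, which were not tested.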
